A study of Mus musculus with 12 samples.

Results

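Immediate early genes are switched on within minutes of a stimulus without new protein synthesis, and their RNAs are short-lived. Growth factors, mechanical stretch, heat, enzymatic digestion, and sorting are all known to induce them, so in freshly isolated smooth muscle cells (SMCs) they are read both as a sign of signaling and as a sign of handling. Serum response factor with its partners, and the cAMP response element-binding factors, are the best-known activators of their promoters. The 10 genes described here were chosen by name, of 52636 genes in the count table. They comprise the AP-1 subunits *Fos*, *Fosb*, *Jun*, and *Junb*, the zinc finger factors *Egr1*, *Egr2*, and *Egr3*, the stress-induced bZIP factor *Atf3*, the nuclear receptor *Nr4a1*, and *Ier2*, a small nuclear regulator.

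RNA sequencing was performed on viable single GFP+ SMCs sorted from the ascending aorta with arch (ascending/arch) and from the descending thoracic aorta of 12-week-old male C57BL/6J mice, 3 animals of each genotype with both segments from each, giving 12 libraries in 4 groups. Tgfbr1/2iSMCKO mice carry Tgfbr1f/f and Tgfbr2f/f with Myh11-CreERT2 and the mT/mG reporter, so that both TGF-β receptors are deleted in SMCs after tamoxifen. GFPiSMC controls carry Myh11-CreERT2 and mT/mG without the floxed alleles and received tamoxifen too. Tamoxifen was given for 5 days at 2 mg/d from 11 weeks of age; the labels also list 1 mg/d from 4 weeks, the schedule of a subgroup. The controls are a separate line, so deletion and line cannot be told apart. The Cre transgene is driven by the *Myh11* promoter, which directs it to smooth muscle, and lies on the Y chromosome, which limits the model to males. Tissue was digested in the cold, a step the study took to limit cell stress. A library from undigested tissue was not analysed here, so RNA made in the animal and RNA made during isolation cannot be told apart.

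Libraries held 20467027 to 31392396 counts from 9208 to 20000 sorted cells, and the 10 genes together took 0.023% to 0.114% of the counts. The summed level of 6 SMC markers was 32900 to 46900 CPM in every group. Here and below, CPM are counts scaled to the library total multiplied by its TMM scaling factor. These factors were 0.910 to 0.991 in GFPiSMC and 1.01 to 1.08 in Tgfbr1/2iSMCKO libraries. Summed markers of 6 genes each were 27.3 to 247 CPM for fibroblasts, 54.4 to 104 CPM for endothelial cells, and 3.12 to 14.7 CPM for macrophages. The 5 cardiomyocyte markers summed to 13.1 to 31 CPM in GFPiSMC and 25.5 to 178 CPM in Tgfbr1/2iSMCKO libraries, and within them *Actc1*, a cardiac actin, was higher in Tgfbr1/2iSMCKO cells (log2 fold change 4.20 ± 0.66 SE, edgeR adjusted p = 0.00161). Of the 6 endothelial markers, 5 had fitted values above 0 in Tgfbr1/2iSMCKO cells, with a median log2 fold change of 0.95, and *Cdh5* was higher (2.97 ± 0.70 SE, edgeR adjusted p = 0.0250) at 0 to 0.513 CPM in GFPiSMC and 0.497 to 2.71 CPM in Tgfbr1/2iSMCKO libraries, while *Pecam1*, which made up most of the sum, had -0.13 ± 0.16 SE (0.800). Of the 6 fibroblast markers, 3 had fitted values below 0, with a median log2 fold change of 0.06. Among them *Col14a1* was lower (-0.82 ± 0.20 SE, edgeR adjusted p = 0.0316). The p-values of these markers treat both libraries of an animal as separate. The part of these cell types in the results that follow was not tested. Lymphocyte, neutrophil, Schwann cell, and adipocyte lists summed to at most 6.60 CPM, skeletal muscle to at most 29.3 CPM, and the 4 erythroid genes to at most 83.4 CPM. That erythroid level was reached in the descending library of GFPiSMC animal 3, and the lowest sum in its group was 0.0767 CPM. Deleted receptors were counted over the whole gene, so reads from the exons that remain are included and the totals do not check the deletion. *Tgfbr1* averaged 235 ± 35.3 CPM in GFPiSMC and 252 ± 33.0 CPM in Tgfbr1/2iSMCKO libraries, and *Tgfbr2* 106 ± 13.3 and 89.0 ± 12.5 CPM (SD, n = 6 libraries from 3 animals); neither passed the test (adjusted p = 0.79 and 0.23).

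The sequence just upstream of the RefSeq start is shown for the 5 members whose spread between libraries was largest for their level, because several of them varied together across animals. Each line gives the 100 bases before the start (GRCm38.p6), 5′ to 3′ on the gene's strand, with capitals at TGACG, the core of the cAMP response element, or its reverse complement CGTCA.
*Fos*, chr12:85473790-85473889, plus strand: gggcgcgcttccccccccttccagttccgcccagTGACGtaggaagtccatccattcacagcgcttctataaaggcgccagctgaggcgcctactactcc
*Fosb*, chr7:19310046-19310145, minus strand: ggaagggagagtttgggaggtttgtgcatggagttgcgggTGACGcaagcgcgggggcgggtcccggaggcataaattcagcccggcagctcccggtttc
*Jun*, chr4:95052223-95052322, minus strand: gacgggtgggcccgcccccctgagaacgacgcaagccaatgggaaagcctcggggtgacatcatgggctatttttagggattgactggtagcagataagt
*Atf3*, chr1:191183334-191183433, minus strand: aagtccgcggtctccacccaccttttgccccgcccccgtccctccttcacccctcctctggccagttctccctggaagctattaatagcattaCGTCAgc
*Nr4a1*, chr15:101266746-101266845, plus strand: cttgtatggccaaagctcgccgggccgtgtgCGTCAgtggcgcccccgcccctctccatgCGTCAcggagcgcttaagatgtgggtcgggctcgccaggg

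The core begins 66 bases before the start in *Fos* and 60 bases before it in *Fosb*, 7 bases before it in *Atf3*, and 69 and 40 bases before it in *Nr4a1*, whereas the *Jun* window holds none. For *Atf3* and *Nr4a1* this start is an internal one. Their windows lie inside the annotated genes, which span chr1:191170296-191218039 and chr15:101254269-101274795. In the 250 bases upstream, TGACG on either strand was found in 6 of the 7 members with a promoter entry (*Fos*, *Fosb*, *Junb*, *Egr2*, *Atf3*, and *Nr4a1*) and in 19.8% of 27025 genes. The full element TGACGTCA and the AP-1 site TGANTCA were found in 0 of the 7, against 1.77% and 7.82% of genes. A CArG box, the serum response factor motif, was found in *Egr2* (1.62% of genes), and TATAAA in *Fos* (14.3% of genes). These matches describe letters in a window and were not tested for binding. Only matches to these patterns were counted, so variants inside the window, such as TGACATCA in that of *Jun*, were left out. Sequence outside the window was not searched, so a motif missing here may lie elsewhere. *Egr1*, *Egr3*, and *Ier2* have no entry.

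*Fos*, the subunit that pairs with JUN proteins, was abundant and split by animal. In ascending/arch GFPiSMC cells its level was 163, 93.1, and 18.2 CPM in animals 1, 2, and 3, and in descending cells 199, 222, and 21.7 CPM. The Tgfbr1/2iSMCKO levels were 60.3, 80.0, and 18.1 CPM in the ascending/arch segment and 49.0, 63.5, and 16.0 CPM in the descending segment. The animal numbered 3 was lowest in all 4 groups, and the genotypes overlapped in both segments. Within the groups the SD of log2 CPM was 1.47, above 99.4% of genes of like level (within 0.5 log2 CPM), whose median SD was 0.268.

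*Fosb*, a close relative of *Fos*, was lower per library and split by genotype within each segment. Its level was 6.67, 27.4, and 9.17 CPM in ascending/arch GFPiSMC cells and 10.5, 22.5, and 9.44 CPM in descending ones. In Tgfbr1/2iSMCKO cells it was 2.78, 6.21, and 1.45 CPM in the ascending/arch segment and 0.17, 7.79, and 2.16 CPM in the descending segment. All 3 Tgfbr1/2iSMCKO libraries lay below all 3 GFPiSMC libraries in each segment, which held for 10.1% and 7.75% of all genes tested in the ascending/arch and descending segments. Across segments the genotypes overlapped, since Tgfbr1/2iSMCKO animal 2 exceeded GFPiSMC animal 1. The lowest library rests on 4 counts.

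*Jun*, the partner common to AP-1 dimers, was 47.2, 80.5, and 37.8 CPM in ascending/arch and 79.1, 179, and 37.9 CPM in descending GFPiSMC cells. The Tgfbr1/2iSMCKO levels were 24.2, 59.4, and 58.7 CPM in the ascending/arch segment and 27.99, 52.9, and 60.8 CPM in the descending segment. The genotypes overlapped, with GFPiSMC animal 2 highest and Tgfbr1/2iSMCKO animal 1 lowest in each segment. *Jun* shares 232 exon bases with its antisense gene *Junos*, and the library kit did not keep strand, but *Junos* held 75.3 counts per library on average against 1681 for *Jun*.

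*Junb*, a JUN family member that can restrain *Jun*, had its highest levels in Tgfbr1/2iSMCKO libraries. It was 10.6, 9.99, and 7.23 CPM in ascending/arch and 15.9, 15.7, and 7.59 CPM in descending GFPiSMC cells. In Tgfbr1/2iSMCKO cells it was 15.6, 10.6, and 28.2 CPM in the ascending/arch segment and 19.2, 8.95, and 15.9 CPM in the descending segment. The groups overlapped in both segments. *Junb* shares 173 exon bases with *Prdx2*, an abundant peroxiredoxin on the opposite strand with 5799.5 counts per library against 375.3, so its counts are uncertain; *Prdx2* itself did not pass the test between genotypes (log2 fold change 0.02 ± 0.12 SE, adjusted p = 0.97).

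*Ier2*, likewise, was highest in a Tgfbr1/2iSMCKO library. Its level was 43.2, 13.6, and 6.61 CPM in ascending/arch and 27.5, 15.4, and 15.2 CPM in descending GFPiSMC cells. The Tgfbr1/2iSMCKO levels were 21.4, 31.8, and 44.4 CPM in the ascending/arch segment and 40.9, 14.6, and 36.3 CPM in the descending segment. These ranges overlapped in both segments.

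*Egr1*, a factor induced through serum response factor, varied less than *Fos*. It was 129.9, 144, and 49.0 CPM in ascending/arch and 112, 100.2, and 51.8 CPM in descending GFPiSMC cells. In Tgfbr1/2iSMCKO cells it was 52.0, 71.5, and 58.7 CPM in the ascending/arch segment and 45.6, 39.9, and 50.6 CPM in the descending segment. In the descending segment all Tgfbr1/2iSMCKO libraries lay below all GFPiSMC libraries, as for 7.75% of genes. In the ascending/arch segment GFPiSMC animal 3 lay below every Tgfbr1/2iSMCKO library. Within Tgfbr1/2iSMCKO, all 3 descending libraries lay below all 3 ascending/arch libraries, as for 4.08% of genes.

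*Egr2* and *Egr3*, related factors with roles in nerve and immune cells, were near the lower end of detection. *Egr2* was 0.66, 1.99, and 5.21 CPM in ascending/arch and 5.45, 3.01, and 3.25 CPM in descending GFPiSMC cells. The Tgfbr1/2iSMCKO levels were 1.61, 0.63, and 0.16 CPM in the ascending/arch segment and 0.62, 1.03, and 1.21 CPM in the descending segment. The descending levels lay below every GFPiSMC library there, as for 7.75% of genes. The ascending/arch value of Tgfbr1/2iSMCKO animal 3 rests on 5 counts. *Egr3* was 5.5, 13.8, and 4.13 CPM in ascending/arch and 3.26, 3.65, and 5.22 CPM in descending GFPiSMC cells. In Tgfbr1/2iSMCKO cells it was 4.05, 2.18, and 2.32 CPM in the ascending/arch segment, below every GFPiSMC library there, as for 10.1% of genes. In the descending segment it was 0.75, 3.83, and 1.75 CPM, and the groups overlapped.

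*Atf3*, which is induced by many stresses, had the widest spread. It was 149, 334, and 117 CPM in ascending/arch and 180.4, 477, and 117 CPM in descending GFPiSMC cells. The Tgfbr1/2iSMCKO levels were 23.8, 480.2, and 23.3 CPM in the ascending/arch segment and 38.9, 285, and 19.6 CPM in the descending segment. Both libraries of Tgfbr1/2iSMCKO animal 2 lay above those of GFPiSMC animals 1 and 3, while the other 4 Tgfbr1/2iSMCKO libraries lay below all 6 GFPiSMC libraries. The SD within groups was 1.73, above 99.9% of genes of like level.

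*Nr4a1*, an orphan nuclear receptor induced by the same pathways, resembled *Atf3*. It was 129, 161, and 129 CPM in ascending/arch and 102, 216, and 43.9 CPM in descending GFPiSMC cells. In Tgfbr1/2iSMCKO cells it was 35.1, 153, and 29.7 CPM in the ascending/arch segment and 24.2, 67.5, and 18.8 CPM in the descending segment. Again Tgfbr1/2iSMCKO animal 2 overlapped the controls, and animals 1 and 3 lay below every GFPiSMC library.

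**Figure D1:**
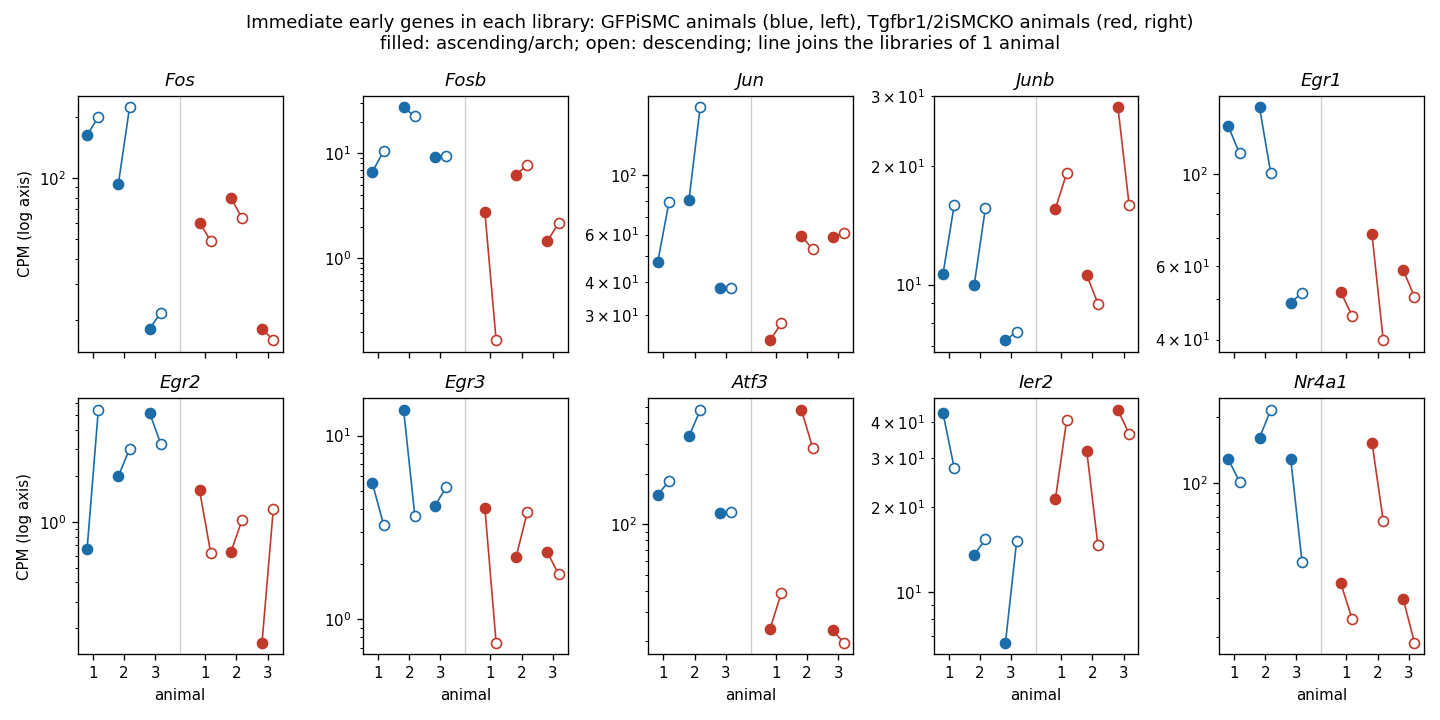
Level of each immediate early gene in CPM (log axes that differ between panels) in every library; filled points are ascending/arch, open points descending, and a line joins both libraries of an animal. *Fos* was lowest in the animal numbered 3 of each genotype, and *Atf3* and *Nr4a1* were high in Tgfbr1/2iSMCKO animal 2 and low in animals 1 and 3.

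Divided by exon length, *Atf3* was highest in GFPiSMC cells at 106 ± 67.6 CPM per kilobase (SD, n = 6 libraries from 3 animals). *Fos* followed at 50.8 ± 37.7, *Nr4a1* at 37.1 ± 16.4, *Jun* at 24.1 ± 16.8, *Egr1* at 21.8 ± 8.87, and *Ier2* at 13.3 ± 8.62 CPM per kilobase. *Junb* at 4.86 ± 1.66, *Fosb* at 2.29 ± 1.36, *Egr3* at 1.34 ± 0.90, and *Egr2* at 0.96 ± 0.54 CPM per kilobase were lowest. Every pair of neighbors in this order had overlapping libraries. In Tgfbr1/2iSMCKO cells *Atf3* was again highest at 67.4 ± 90.1 CPM per kilobase, and *Ier2* ranked second at 20.7 ± 7.56, beside *Fos* at 20.3 ± 11.0. That mean of *Atf3* rests on animal 2, since its median was 14.6 CPM per kilobase, below the medians of *Fos* (23.2), *Ier2* (22.4), and *Jun* (17.5).

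For *Fos*, *Atf3*, *Jun*, *Egr1*, *Nr4a1*, and *Junb*, most of the spread lay between animals, not between the segments of an animal. The measure is the mean square between animals as a share of its sum with the mean square within animals. Spread within an animal enters both mean squares, so they would be alike without an animal effect. The share therefore overstates the part of animals. It was 98.1% for *Fos*, 97.4% for *Atf3*, 92.4% for *Jun*, 90.3% for *Egr1*, 86.1% for *Nr4a1*, and 83.9% for *Junb*. Its median was 64.1% over 9210 genes with a mean log2 CPM above 3. It was 69.4% for *Fosb*, 68.4% for *Ier2*, 24.3% for *Egr2*, and 23.3% for *Egr3*, which does not place most of their spread between animals. These are descriptions over 6 animals, whose libraries the labels pair by number. In sorted bulk cells, fewer expressing cells and less RNA per cell cannot be told apart.

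**Figure D2:**
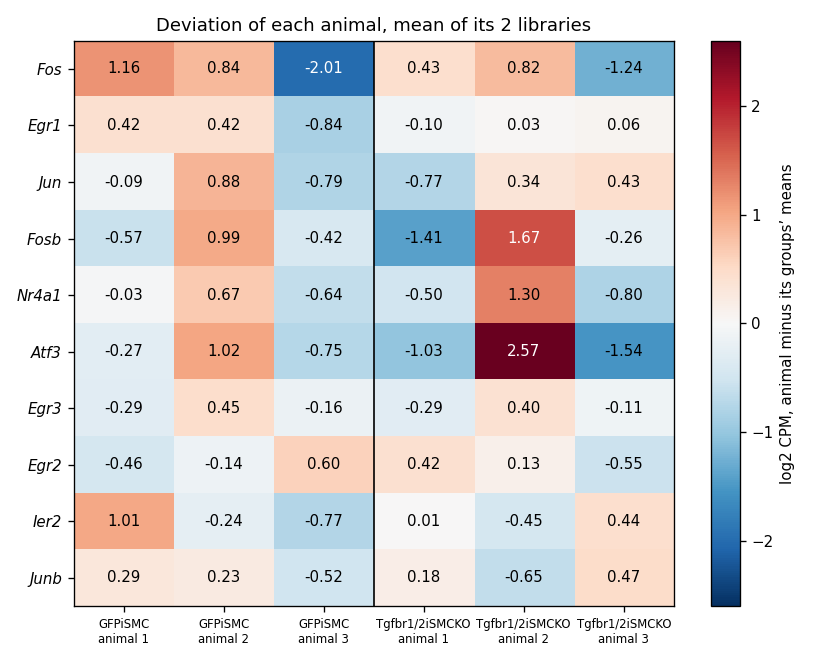
Deviation of each animal from the means of its groups, as the mean over its 2 libraries in log2 CPM, for the 10 genes (rows) and 6 animals (columns); red is above and blue below the group means. *Fos* stood 2.01 below in GFPiSMC animal 3 and *Atf3* stood 2.57 above in Tgfbr1/2iSMCKO animal 2.

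The 10 genes did not move as one. Deviations from the group means correlated positively for 31 of 45 pairs over 12 libraries from 6 animals, above 0.5 for 12, and negatively for 14, with a median Pearson r of 0.17. *Atf3* with *Nr4a1* was highest (r = 0.94), followed by *Fosb* with *Egr3* (0.75) and *Fos* with *Egr1* (0.74). *Egr2* with *Ier2* was lowest (r = -0.70), and *Junb* with *Atf3* was also negative (r = -0.47). All of these share libraries, animals, and depth, and *Egr2* and *Egr3* are sparse.

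Among 85 genes of the related lists, the companions given here were chosen after their values were seen. The highest r was with *Ier5* for *Fosb* (0.84), *Nab1* for *Egr3* (0.83), *Srf* for *Egr2* (0.78), and *Elk3* for *Egr1* (0.77). *Fos* tracked *Zfp36* (r = 0.99), which encodes an RNA-destabilizing protein, the growth inhibitor *Btg2* (0.96), and the MAP kinase phosphatase *Dusp1* (0.92). *Dusp1* was 1244, 619, and 281 CPM in ascending/arch GFPiSMC cells and 898, 1238, and 275 CPM in ascending/arch Tgfbr1/2iSMCKO cells of animals 1 to 3, so it too was lowest in the animals numbered 3. *Atf3* tracked 3 of the 13 heat shock genes most closely, *Hspb1* (0.96), *Hspa1b* (0.94), and *Hspa1a* (0.92), whereas *Hspa5* (-0.64), *Hspd1* (-0.25), *Hsph1* (-0.22), and *Hsp90ab1* (-0.17) were negative. *Ier3*, an apoptosis regulator, was close to both *Atf3* (0.94) and *Nr4a1* (0.96), as was *Hspb1* (0.916 with *Nr4a1*). *Rhob* had r = 0.921 with *Nr4a1*. *Hspa1a*, the inducible HSP70, was 96.6, 359, and 97.0 CPM in ascending/arch GFPiSMC cells and 27.0, 136, and 27.5 CPM in ascending/arch Tgfbr1/2iSMCKO cells. *Jun* tracked *Klf6* (0.92), *Csrnp1* (0.90), and *Maff* (0.90), whereas *Junb* tracked *Mapk3* (0.83), *Phlda1* (0.83), and the interferon factor *Irf1* (0.82), and *Ier2* also tracked *Irf1* (0.84).

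By the mean deviation of the 10 genes, the most alike of 9203 other genes were *Ccn1* (r = 0.94), *Vkorc1l1* (0.93), *Mfsd1* (0.91), *Nfkbiz* (0.89), *Rhob* (0.89), *Tardbp* (0.88), *Gm20481* (0.88), *Csnk1e* (0.88), *Prkaa2* (0.88), and *Gucy1a1* (0.88). *Ccn1*, a secreted matrix protein gene, was 724, 617, and 158 CPM in ascending/arch and 1282, 2308, and 179 CPM in descending GFPiSMC cells, against 87.7, 569, and 67.7 CPM and 102, 344, and 80.4 CPM in Tgfbr1/2iSMCKO cells. Its log2 fold change between genotypes over both segments was -1.95 ± 0.74 SE and did not pass the test (edgeR adjusted p = 0.189). *Mfsd1*, *Prkaa2*, and *Gucy1a1* varied little, with SDs within groups of 0.163, 0.150, and 0.142 on the log2 scale against 1.52 for *Ccn1*. The mean deviation was not scaled, so members with the widest spread weighed most in it. *Ccn1* had r = 0.905 with *Nr4a1*, 0.874 with *Fos*, and 0.828 with *Atf3*. Its r was 0.141 with *Ier2*, 0.137 with *Egr3*, -0.035 with *Junb*, and -0.139 with *Egr2*.

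Measures of library quality were compared with these patterns. The mitochondrial share was 3.78% and 4.76% in GFPiSMC animal 3 and 2.39% and 2.49% in Tgfbr1/2iSMCKO animal 3, against 2.98% to 4.98% in the other 8 libraries, so the animals with low *Fos* had no common value. In Tgfbr1/2iSMCKO animal 2, where *Atf3* was high, totals were 20467027 and 22900103 counts, and the mitochondrial share was 4.23% and 4.98%. Totals near those were also found in the descending library of Tgfbr1/2iSMCKO animal 1 (22916050 counts, *Atf3* at 38.9 CPM), and the highest total was in the descending library of GFPiSMC animal 2 (31392396 counts, *Atf3* at 477 CPM). The part of depth or RNA quality in these levels was not tested.

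**Figure D3:**
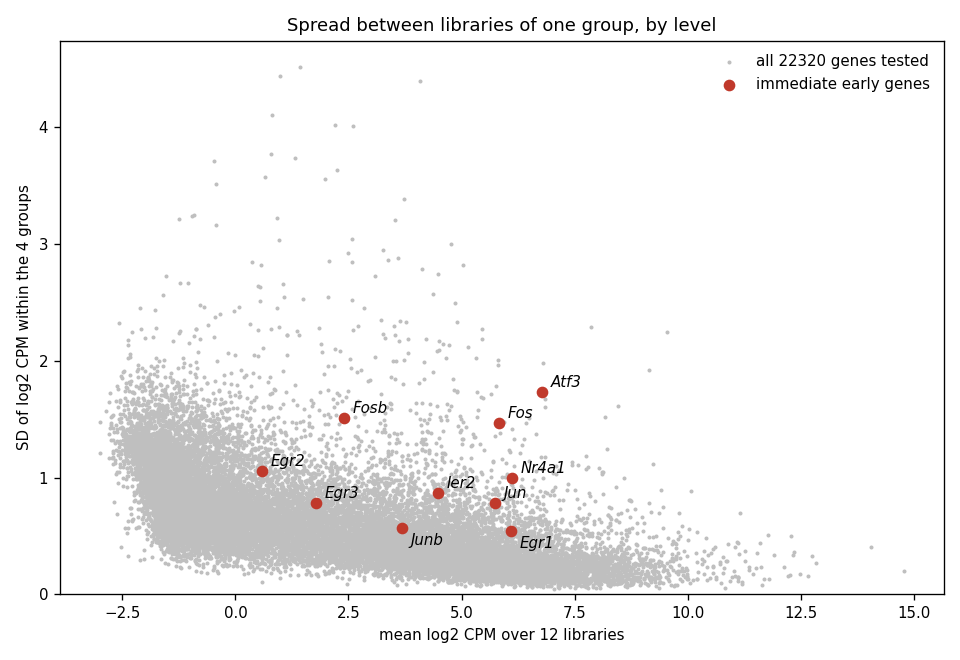
SD of log2 CPM within the 4 groups against mean log2 CPM over 12 libraries, for all 22320 genes tested (gray) and the 10 immediate early genes (red). *Atf3* and *Fos* stood at 1.73 and 1.47, at the upper edge of genes of like level, whereas *Junb* at 0.566 lay inside the gray points.

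Between genotypes, over both segments, 8 of the 10 genes had a fitted log2 fold change below 0 in Tgfbr1/2iSMCKO relative to GFPiSMC, as did 46.3% of all genes, and the median log2 fold change was -1.04 against 0.04 over all genes. None was called at an adjusted p below 0.05 with a change beyond 2-fold (edgeR quasi-likelihood test, 22320 genes), where 2.67% of genes were, and none had an adjusted p below 0.05 at any size, where 5.03% did. Unadjusted, 5 of the 10 had p below 0.05, all lower, against 8.56% of genes lower. For none of the 10 did all 6 Tgfbr1/2iSMCKO libraries lie below all 6 GFPiSMC libraries, which held for 2.89% of genes. DESeq2 called 4 of the 10 (*Fosb*, *Egr2*, *Egr3*, and *Nr4a1*), against 3.66% of genes, with 5668 genes given no adjusted p. Libraries of one animal are not independent, so the fit on counts summed per animal (3 against 3) is given beside each member's value over both segments below.

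*Egr1* differed by -0.89 ± 0.25 SE on the log2 scale (adjusted p = 0.0582 by edgeR, and 0.288 with counts summed per animal). *Egr2* had -1.86 ± 0.54 SE (adjusted p = 0.0683, and 0.0400 summed, the only member to pass there, against 1.57% of genes). *Fosb* had the lowest value, -2.06 ± 0.65 SE (adjusted p = 0.0976, and 0.237 summed). *Egr3* had -1.20 ± 0.40 SE (adjusted p = 0.127) and *Nr4a1* -1.33 ± 0.49 SE (adjusted p = 0.166); summed per animal, their adjusted p-values were 0.169 and 0.411. *Fos* had -1.29 ± 0.62 SE (adjusted p = 0.332, and 0.575 summed), *Jun* -0.64 ± 0.38 SE (0.476, and 0.681 summed), and *Atf3* -0.68 ± 0.81 SE (0.798, and 0.889 summed). *Ier2* and *Junb* had fitted values above 0, at 0.64 ± 0.40 SE and 0.57 ± 0.30 SE (adjusted p = 0.517 and 0.413, and 0.690 and 0.642 summed).

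Single animals decided several of these values. The fits that leave an animal out still treat both libraries of each remaining animal as separate. Sums per animal were not fitted for them, so their p-values overstate the evidence where animals differ. Without Tgfbr1/2iSMCKO animal 2, the fitted log2 value of *Atf3* was -3.11 (edgeR adjusted p = 0.00221), that of *Fosb* -3.15 (0.0198), and that of *Nr4a1* -2.29 (0.00396), all past the threshold, against 2.7% of genes. Without GFPiSMC animal 2, *Atf3* had -0.003 and *Jun* -0.08. Without GFPiSMC animal 3, *Egr1* had -1.20 (adjusted p = 0.000549), against 1.88% of genes. Over the 14 alternatives, the adjusted p of *Egr1* ranged from 0.000549 to 0.288, that of *Atf3* from 0.00221 to 0.999, that of *Fosb* from 0.0103 to 0.419, and that of *Nr4a1* from 0.00396 to 0.490.

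**Figure D4:**
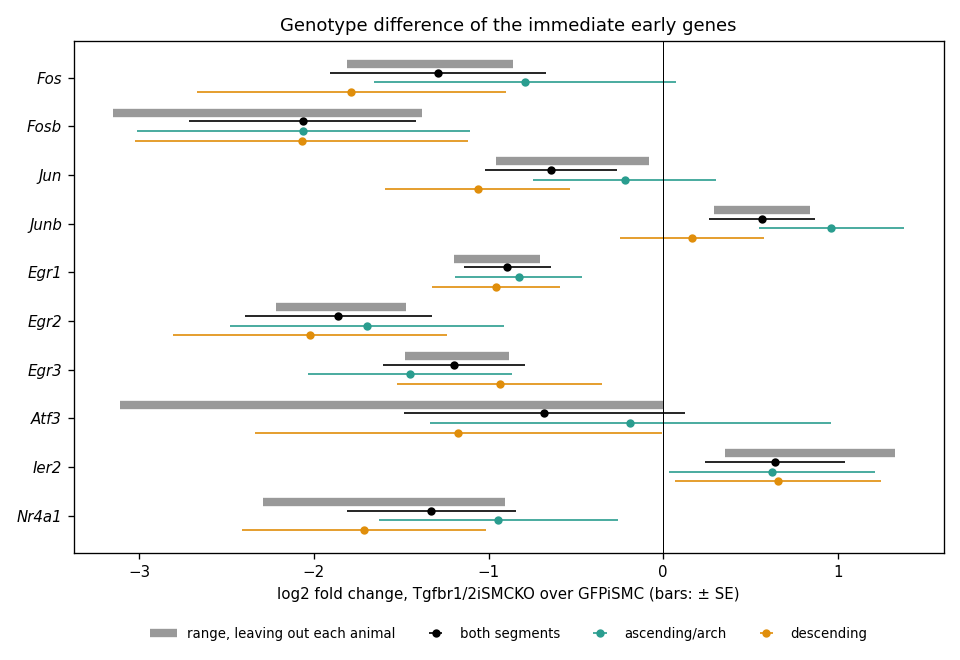
Log2 fold change of Tgfbr1/2iSMCKO over GFPiSMC for each immediate early gene, with SE bars, over both segments (black) and in the ascending/arch (green) and descending (orange) segments; gray bars span the values over both segments when each animal is left out. The gray bar of *Atf3* runs from -3.11 to -0.003, the widest of the 10.

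Within segments none of the 10 was called, against 1.15% of genes in the ascending/arch and 1.42% in the descending segment. Unadjusted p-values below 0.05 were found in the ascending/arch segment for *Egr1* (log2 fold change -0.83 ± 0.36 SE), *Egr3* (-1.45 ± 0.58), and *Junb* (0.96 ± 0.42), or 3 of 10 against 11.4% of genes. In the descending segment they were found for *Egr1* (-0.96 ± 0.37), *Egr2* (-2.02 ± 0.79), and *Nr4a1* (-1.71 ± 0.70), or 3 of 10 against 10.7% of genes. *Fos* had -0.79 ± 0.86 SE in the ascending/arch and -1.79 ± 0.89 SE in the descending segment. The difference of the genotype effect between segments was called for 0 of the 10 and 0% of genes, and 0 of the 10 had an unadjusted p below 0.05 against 2.95% of genes. Between segments, 0 of the 10 were called in GFPiSMC, against 0.372% of genes, and 0 in Tgfbr1/2iSMCKO, against 0.108%; none had an unadjusted p below 0.05 in either, against 5.98% and 3.68%.

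Among related genes, those of the lists named here are compared with the 1.64% of all genes called lower and 1.03% called higher. Of 29 other primary response genes, 3 were lower past both thresholds, 6 were lower at an adjusted p below 0.05 of any size, and 0 were higher, with a median log2 fold change of -0.48. *Klf2*, a flow-responsive factor, was 15.5, 24.9, and 9.42 CPM in ascending/arch and 24.1, 14.9, and 8.96 CPM in descending GFPiSMC cells, and 5.49, 3.74, and 3.70 CPM and 2.77, 4.62, and 2.19 CPM in Tgfbr1/2iSMCKO cells. It fell in Tgfbr1/2iSMCKO cells by 2.13 ± 0.32 SE on the log2 scale (edgeR adjusted p = 0.00108, and 0.0240 summed per animal). Its libraries did not overlap between genotypes, which held in this direction for 2.89% of genes. *Gem*, a small GTPase that limits calcium entry, fell by 1.11 ± 0.16 SE (adjusted p = 0.00071, and 0.0125 summed). *Errfi1*, an inhibitor of EGF receptor signaling, fell by 1.04 ± 0.20 SE (adjusted p = 0.00768, and 0.0974 summed), and *Trib1*, *Rhob*, and *Mcl1* fell by 0.97, 0.75, and 0.57 (adjusted p = 0.0367, 0.0106, and 0.0327), calls that were lost with counts summed per animal (0.156, 0.101, and 0.200). *Phlda1* had the highest value of the list, 1.39 ± 0.44 SE (adjusted p = 0.104). The count past both thresholds was 6 without Tgfbr1/2iSMCKO animal 2 and 2 (*Gem* and *Klf2*) without GFPiSMC animal 2, GFPiSMC animal 3, or Tgfbr1/2iSMCKO animal 1.

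Of 10 other AP-1 and related bZIP genes tested of 12, 2 were lower and 0 higher. *Atf4*, the effector of the integrated stress response, fell by 1.05 ± 0.16 SE (adjusted p = 0.00129, and 0.0374 summed), from 95.1 to 114 CPM over the 6 GFPiSMC libraries to 35.3 to 68.7 CPM over the 6 Tgfbr1/2iSMCKO libraries. *Mafk* fell by 1.04 ± 0.24 SE (adjusted p = 0.0226, and 0.0844 summed). *Fosl2* had the lowest value, -1.25 ± 0.36 SE (adjusted p = 0.0649), and *Batf2* the highest, 0.85 ± 0.89 SE (0.757). The count was 1 (*Atf4*) without GFPiSMC animal 1, GFPiSMC animal 2, or Tgfbr1/2iSMCKO animal 1, and 1 (*Mafk*) without Tgfbr1/2iSMCKO animal 3. Of 4 other EGR, NR4A, and NAB genes tested of 5, none was called; *Nr4a3* had -1.03 ± 0.50 SE (adjusted p = 0.343) and *Nr4a2* -0.04 ± 0.26 SE (0.973), and without Tgfbr1/2iSMCKO animal 2 the count was 1 (*Nr4a3*).

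Of 15 feedback inhibitors tested of 17, 2 were lower and 0 higher. *Gadd45b*, a stress sensor induced by TGF-β, fell by 1.67 ± 0.24 SE (edgeR adjusted p = 0.00073, and 0.0277 summed), with 10.5 to 27.1 CPM in GFPiSMC and 3.55 to 8.16 CPM in Tgfbr1/2iSMCKO libraries. *Spry1*, an inhibitor of receptor tyrosine kinase signaling, fell by 1.06 ± 0.26 SE (adjusted p = 0.0282, and 0.150 summed), and *Socs3* had the highest value, 0.80 ± 0.62 SE (0.638). Leaving out any animal other than Tgfbr1/2iSMCKO animal 2 gave a count of 1 (*Gadd45b*). Of 14 upstream factors and kinases tested of 15, none was called, from *Rps6ka3* at -0.96 ± 0.36 SE (adjusted p = 0.181) to *Mrtfa* at 0.39 ± 0.25 SE (0.524).

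All 13 heat shock genes had fitted values below 0, against 46.3% of genes, with a median log2 fold change of -0.78; 3 were lower past both thresholds and 5 at an adjusted p below 0.05. *Hspa8*, the constitutive HSP70, fell by 1.12 ± 0.15 SE (adjusted p = 0.000571, and 0.0124 summed), from 1595 to 2333 CPM in GFPiSMC to 623 to 1216 CPM in Tgfbr1/2iSMCKO libraries. *Dnajb1* and *Hsph1*, its co-chaperones, fell by 1.63 ± 0.36 and 1.28 ± 0.26 SE (adjusted p = 0.0181 and 0.0108, and 0.132 and 0.136 summed), and *Dnaja1* and *Hsp90aa1* fell by 0.78 and 0.74 (0.00672 and 0.0159, and 0.115 and 0.0932 summed). *Hspa1b* had the lowest value, -2.005 ± 0.67 SE (adjusted p = 0.123), and *Hspd1* the highest, -0.03 ± 0.20 SE (0.970). The count past both thresholds was 0 without Tgfbr1/2iSMCKO animal 1, 1 without GFPiSMC animal 2, 5 without Tgfbr1/2iSMCKO animal 2, and 1 (*Hspa8*) with counts summed per animal. With library size alone as scaling, which moved the median of all genes to 0.164, 12 of the 13 were below 0, and the counts past both thresholds were 2 for heat shock, 1 for primary response, 0 for AP-1 and related, and 1 for feedback genes.

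**Figure D5:**
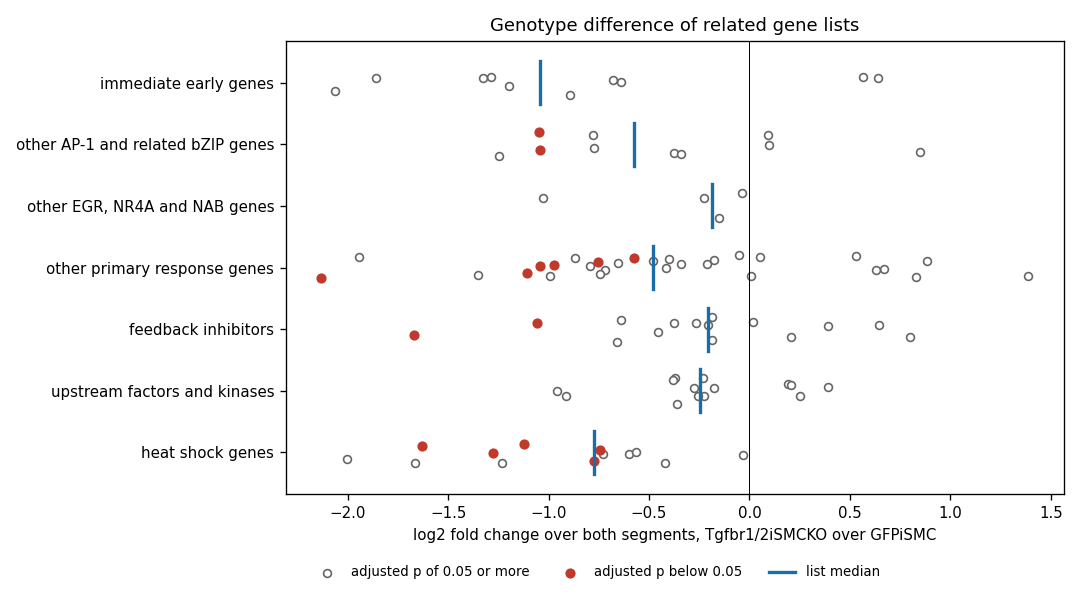
Log2 fold change over both segments, Tgfbr1/2iSMCKO over GFPiSMC, of each gene tested in 7 lists (rows); red points have an adjusted p below 0.05, open points do not, and blue lines are list medians. The medians were -1.04 for the immediate early genes, none of which is red, and -0.78 for the heat shock genes, 5 of which are.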

How the data were processed

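The deposited table held gene counts for 12 libraries, in whole numbers. The authors trimmed reads with Trim Galore 0.5.0, used HISAT2 2.1.0 for alignment to GRCm38, and used StringTie 1.3.3b with GENCODE M15 annotation; the step from StringTie to counts is not given in the sources used here. Symbols, coordinates, and overlaps came from GENCODE of the same build. Genes were kept by filterByExpr (22320 of 52636), scaled by TMM factors, and tested with edgeR 4.0.16 (quasi-likelihood, R 4.3.3) with Benjamini-Hochberg adjustment, with segment as covariate over both segments and the 4 group means otherwise. DESeq2 1.42.0, other scalings and filters, a replicate block, sums per animal, and leaving out each animal were alternatives. Log2 CPM used a prior count of 2. On simulated counts over 21127 genes, 93% of genes changed by 2 log2 units and 81% of those changed by 1.5 were recovered over both segments, with 4.92% false calls. Within either segment 71% were recovered at 2, and 37% (ascending/arch) and 36% (descending) at 1.5. Each simulated library was drawn independently, so the libraries of an animal shared no spread, and the changed genes were picked at random. These rates therefore do not hold for genes that vary between animals as the members do. Members of 1 group were separate animals; p-values over 12 libraries treat the segments of an animal as separate. The 10 genes and the related lists were chosen with earlier results of these data known. Named were the 10 genes, the receptors, list genes at an adjusted p below 0.05 or at a list's extremes, and the 10 genes closest to the members' mean deviation. The companions of single members were picked after their values were seen.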

Additional observations from a re-analysis of the deposited data

How the results depend on the processing

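Over both segments, 0 of the 10 genes were called, against 4 with DESeq2 (3.66% of all genes), 1 (*Egr2*) with counts summed per animal (1.57%), and 0 to 3 when each animal was left out (1.87% to 2.7%). RLE factors, library size alone, either filter, and no segment term gave 0. All 140 fitted values of the 10 genes kept their direction there. In each segment the count was 0 to 1 when each animal was left out, 1 (*Egr1*) being without GFPiSMC animal 3 (0.679% of all genes in the ascending/arch and 0.862% in the descending segment). Without single animals the sign changed for *Jun* (log2 fold change -0.42 to 0.16) and *Atf3* (-3.08 to 0.40) in the ascending/arch and *Junb* (-0.11 to 0.42) in the descending segment, none of them called. Of 380 fitted values for segments and their difference, 38 changed sign and 0 passed.

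Blocking on the replicate number called 3 of the 10 over both segments (*Fosb*, *Atf3*, and *Nr4a1*), against 2.55% of all genes. Over 9210 genes with a mean log2 CPM above 3, same-numbered libraries of the genotypes gave r = -0.53 to 0.22, and the labels name no shared litter or day, so the block was not used as the main fit. In *Fos*, *Fosb*, *Egr3*, *Atf3*, and *Nr4a1*, same-numbered animals did deviate in the same direction in all 3 pairs, unlike in the other members. How many of all genes do so was not counted, and whether the numbers mark a shared batch was not tested. Both libraries of an animal correlated at -0.24 to 0.66, and an animal block gave 0 calls between segments.

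With library size alone the median of all genes was 0.164, against 0.04 with TMM. With 3 animals a group, an exact permutation test on 1 value cannot go below 0.10, and *Egr2*, *Egr3*, and *Fosb* rest on few counts in some libraries.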
